A study of Saccharomyces cerevisiae with 4 samples.

Results

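The mRNAs of 10 transcription factors that act in the heat and stress response of Saccharomyces cerevisiae were followed in RNA crosslinked to the RNA-binding protein Mip6. They are HSF1, MSN2, MSN4, YAP1, SKN7, GIS1, RPH1, SKO1, HOT1 and CIN5, chosen by gene name, and all 10 were found among the 7126 features counted. Every sample came from the strain labelled Mip6-HTB, in which Mip6 carries a tag for purification on nickel and streptavidin beads. Cells grew in a synthetic medium with glucose at 30 °C. The heat-stressed culture spent its last 20 min at 39 °C and the other stayed at 30 °C. Labelling with 4-thiouracil lasted 45 min in both, of which the heat-stressed culture had 25 min at the lower temperature, and ultraviolet light of 365 nm was then applied for 15 min. There was 1 library per temperature, given as a plus-strand and a minus-strand sample, and the strands are parts of a library and not replicates. Differences between the temperatures therefore have no replicate check and no p-value. The series has neither an untagged control nor an input RNA among its samples, so a read level reflects how much of an mRNA there was as well as how well it crosslinked, and the number of cells cannot be told apart from the RNA per cell.

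In PAR-CLIP, 4-thiouracil taken up into RNA is crosslinked to bound protein by ultraviolet light, and the RNA that stays on the purified protein is sequenced. Stress factors of yeast are controlled largely after translation. Hsf1 is released from chaperones on heat shock, Msn2 and Msn4 enter the nucleus when protein kinase A activity drops, Yap1 is kept in the nucleus after oxidation, and Sko1 and Hot1 are targets of the osmotic stress kinase Hog1. Mip6 binds the mRNA export receptor Mex67, and the study asks how it bears on the mRNAs of genes that depend on Msn2 and Msn4.

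Reads in features numbered 11657228 at 30 °C and 6950540 at 39 °C. For each gene the reads of its own strand were taken, and they were scaled so that the reads in features of both strand samples of a temperature sum to 1000000 (CPM). A count of 0 would allow up to 0.257 CPM at 30 °C and 0.432 CPM at 39 °C. All 10 genes lay far above this, with between 335 and 2732 own-strand reads in each library. Intervals below are exact 95% intervals for counting error, which treat reads as independent and do not cover the difference between cultures.

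Divided by gene length, these mRNAs were mostly in the lower part of the range of Mip6 reads, with YAP1 as the highest. Their median was 31.0 CPM per kilobase at 30 °C and 40.7 CPM per kilobase at 39 °C, beside 74.1 and 73.5 CPM per kilobase over the 6162 reading frames with at least 20 own-strand reads. A low level was not particular to them. The 95 other transcription factor genes compared below had medians of 43.0 CPM per kilobase at 30 °C and 43.8 at 39 °C. YAP1 stood at 120.0 CPM per kilobase at 30 °C, at rank 2082 of the 6162 reading frames, and at 118.6 CPM per kilobase at 39 °C, rank 1981. SKN7 was the lowest of the 10 at both temperatures, with 18.3 CPM per kilobase and rank 5332 at 30 °C and 25.8 CPM per kilobase and rank 5084 at 39 °C. The highest level was 6.55 times the lowest at 30 °C and 4.6 times at 39 °C. Together the 10 genes held 0.0826% of the reads at 30 °C, with a Clopper-Pearson interval from 0.0809 to 0.0842%, and 0.0971% at 39 °C, with one from 0.0948 to 0.0995%.

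**Figure D1:**
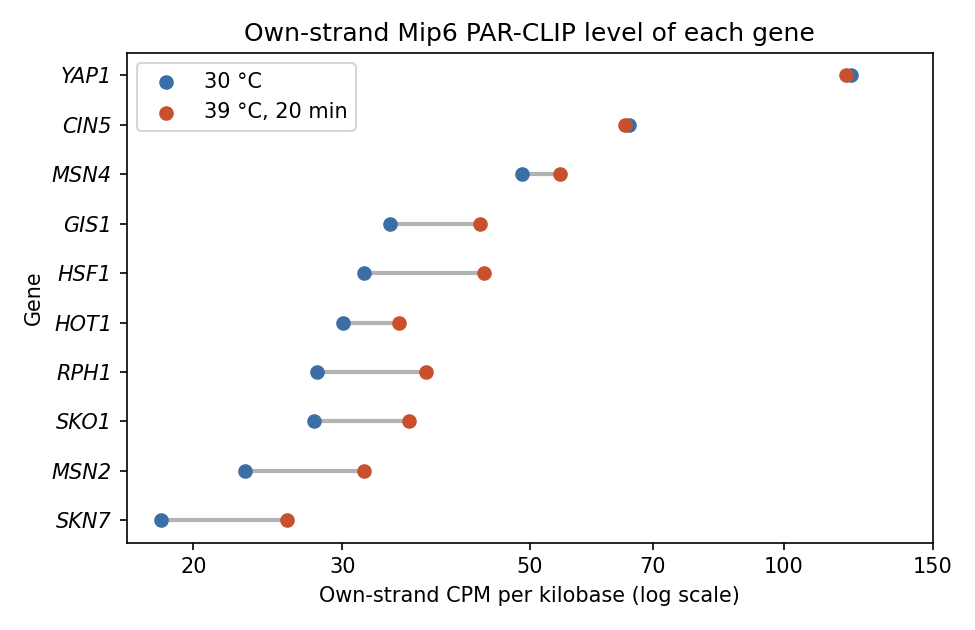
Own-strand CPM per kilobase (horizontal, log scale) of each of the 10 genes at 30 °C and after 20 min at 39 °C, 1 library each, ordered by level at 30 °C. YAP1, CIN5 and MSN4 lead at both temperatures, and the genes below them lie further right at 39 °C while YAP1 and CIN5 hardly differ.

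The order of levels at 30 °C was YAP1, CIN5, MSN4, GIS1, HSF1, HOT1, RPH1, SKO1, MSN2 and SKN7. The first 3 steps in it, and those from SKO1 to MSN2 and from MSN2 to SKN7, were larger than counting error, while GIS1, HSF1, HOT1, RPH1 and SKO1 formed a run in which no neighbours differed beyond it. At 39 °C HSF1 stood just before GIS1 with a ratio of 1.01 (0.916 to 1.12), and RPH1, SKO1, HOT1 and MSN2 formed a run without a step beyond counting error. YAP1, CIN5 and MSN4 led and SKN7 came last at both temperatures.

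The heat shock factor gene HSF1 and the related SKN7 had a higher own-strand CPM at 39 °C than at 30 °C. HSF1 (YGL073W, plus strand of chromosome VII, 368753 to 371254, build R64), which codes for the essential activator of chaperone genes, had 929 reads or 79.7 CPM at 30 °C and 769 reads or 110.6 CPM at 39 °C. Its log2 ratio was 0.47 (0.33 to 0.61). SKN7 (YHR206W, plus strand of chromosome VIII, 512732 to 514600) codes for a response regulator with a DNA-binding domain like that of Hsf1, and acts with Yap1 on oxidative stress genes. It had 399 reads or 34.2 CPM at 30 °C and 335 reads or 48.2 CPM at 39 °C, which is a log2 ratio of 0.49 (0.28 to 0.71). The log2 ratio of HSF1 minus that of SKN7 was -0.02 (-0.28 to 0.24), and that of HSF1 minus that of MSN2 was 0.01 (-0.22 to 0.24), so the reads set no order among these genes. HSF1 was 1.74 times as high per length as SKN7 at 30 °C (1.55 to 1.96) and 1.71 times at 39 °C (1.51 to 1.96), but 3.60 times (3.25 to 3.99) and 3.94 times (3.53 to 4.42) with the reads of both strands summed.

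The paralogues MSN2 and MSN4, which code for zinc finger activators that bind the stress response element, differed in level and in ratio. MSN2 (YMR037C, minus strand of chromosome XIII, 344403 to 346517) had 568 reads or 48.7 CPM at 30 °C and 468 reads or 67.3 CPM at 39 °C. Its log2 ratio was 0.47 (0.29 to 0.65). MSN4 (YKL062W, plus strand of chromosome XI, 323228 to 325120) had 1082 reads or 92.8 CPM at 30 °C and 715 reads or 102.9 CPM at 39 °C, which is a log2 ratio of 0.15 (0.01 to 0.29). Per length MSN4 was 2.13 times as high as MSN2 at 30 °C (1.92 to 2.36) and 1.71 times at 39 °C (1.52 to 1.92). The log2 ratio of MSN2 exceeded that of MSN4 by 0.32 (0.09 to 0.55), a gap beyond counting error between these libraries. With the reads of both strands summed the gap was 0.45 (0.24 to 0.66). That value takes in opposite-strand reads, whose log2 ratio was 1.54 for MSN2 and 0.77 for MSN4.

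GIS1 and RPH1, paralogues with a JmjC domain and zinc fingers, lay close together in level and in ratio. Gis1 acts on genes of the entry into stationary phase, and Rph1 is a histone demethylase that represses the DNA repair gene PHR1. GIS1 (YDR096W, plus strand of chromosome IV, 637139 to 639823) had 1071 reads or 91.9 CPM at 30 °C and 815 reads or 117.3 CPM at 39 °C, which is a log2 ratio of 0.35 (0.22 to 0.48). RPH1 (YER169W, plus strand of chromosome V, 523369 to 525759) had 780 reads or 66.9 CPM at 30 °C and 626 reads or 90.1 CPM at 39 °C. Its log2 ratio was 0.43 (0.27 to 0.58). The log2 ratio of GIS1 minus that of RPH1 was -0.08 (-0.28 to 0.13). GIS1 was 1.22 times as high per length as RPH1 at 30 °C (1.11 to 1.34), but 0.976 times (0.896 to 1.06) when the reads of both strands were summed.

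YAP1 and CIN5, the members that code for bZIP factors of the Yap family, had nearly the same own-strand CPM at both temperatures. YAP1 (YML007W, plus strand of chromosome XIII, 253848 to 255800), which codes for the main activator of antioxidant genes, had 2732 reads or 234.4 CPM at 30 °C and 1610 reads or 231.6 CPM at 39 °C. The log2 ratio was -0.02 (-0.11 to 0.07). CIN5, also called YAP4 (YOR028C, minus strand of chromosome XV, 383533 to 384420), codes for a bZIP factor of salt and osmotic stress. It had 679 reads or 58.2 CPM at 30 °C and 400 reads or 57.5 CPM at 39 °C, and its log2 ratio was also -0.02 (-0.20 to 0.16). The sign of both values turned with edgeR's TMM factors, to 0.0039 for each, and both intervals included no change. YAP1 was 1.83 times as high per length as CIN5 at each temperature (1.68 to 1.99 at 30 °C and 1.64 to 2.05 at 39 °C).

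Of the factors under Hog1, SKO1 had the higher ratio, but by less than counting error. SKO1 (YNL167C, minus strand of chromosome XIV, 319416 to 321359) codes for a bZIP repressor that brings the Tup1 and Cyc8 corepressor to osmotic stress genes and turns into an activator on phosphorylation by Hog1. It had 629 reads or 54.0 CPM at 30 °C and 487 reads or 70.1 CPM at 39 °C, which is a log2 ratio of 0.38 (0.20 to 0.55). HOT1 (YMR172W, plus strand of chromosome XIII, 605981 to 608140), whose product recruits Hog1 to glycerol synthesis genes, had 758 reads or 65.0 CPM at 30 °C and 526 reads or 75.7 CPM at 39 °C. Its log2 ratio was 0.22 (0.06 to 0.38). The log2 ratio of SKO1 minus that of HOT1 was 0.16 (-0.08 to 0.40).

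**Figure D2:**
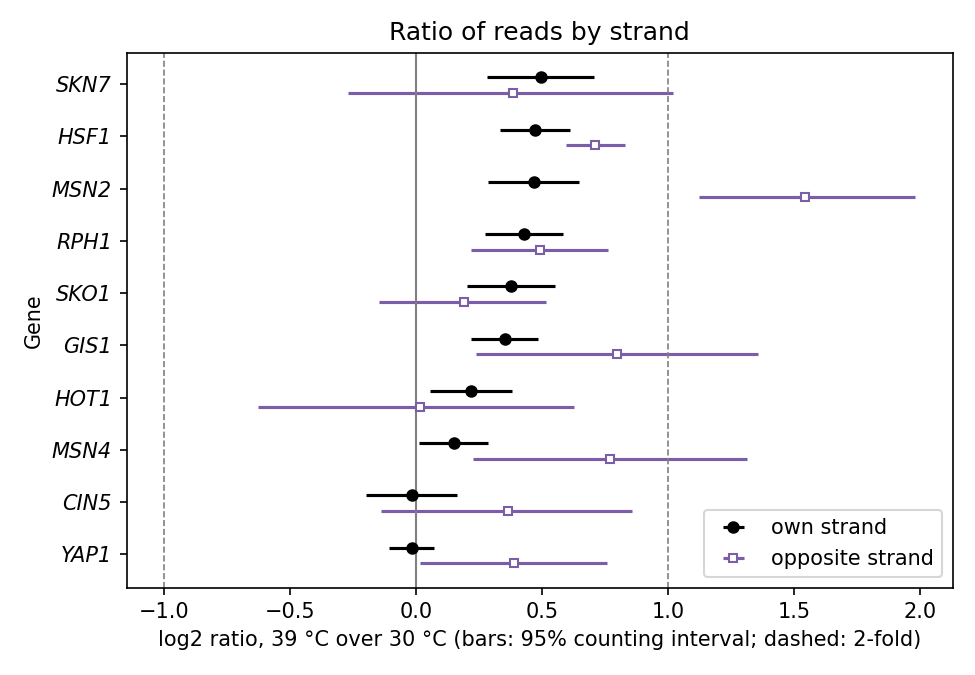
Log2 ratio of reads at 39 °C over 30 °C for each gene, from reads of its own strand (filled circles) and of the opposite strand (open squares). Bars are 95% counting intervals and dashed lines mark 2-fold. Own-strand ratios run from -0.02 to 0.49, and the opposite-strand ratio of MSN2, at 1.54, is the only value past 2-fold.

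None of the 10 genes was at least 2-fold higher or lower at 39 °C on its own strand. Over the 6162 tested reading frames 4.4% were at least 2-fold higher and 2.69% at least 2-fold lower. At 1.5-fold the count was still 0 of 10 in either direction, beside 11.5% higher and 11.9% lower over all tested reading frames. The counting interval lay above no change for 8 of the 10 genes and for 31.5% of all tested reading frames. The median log2 ratio of the 10 genes was 0.36, with quartiles of 0.17 and 0.46, and that of all tested reading frames was -0.03, with quartiles of -0.33 and 0.28. All 10 genes lay above that median. SKN7, the highest, was at percentile 85.8 of all tested reading frames and YAP1, the lowest, at percentile 51.7.

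**Figure D3:**
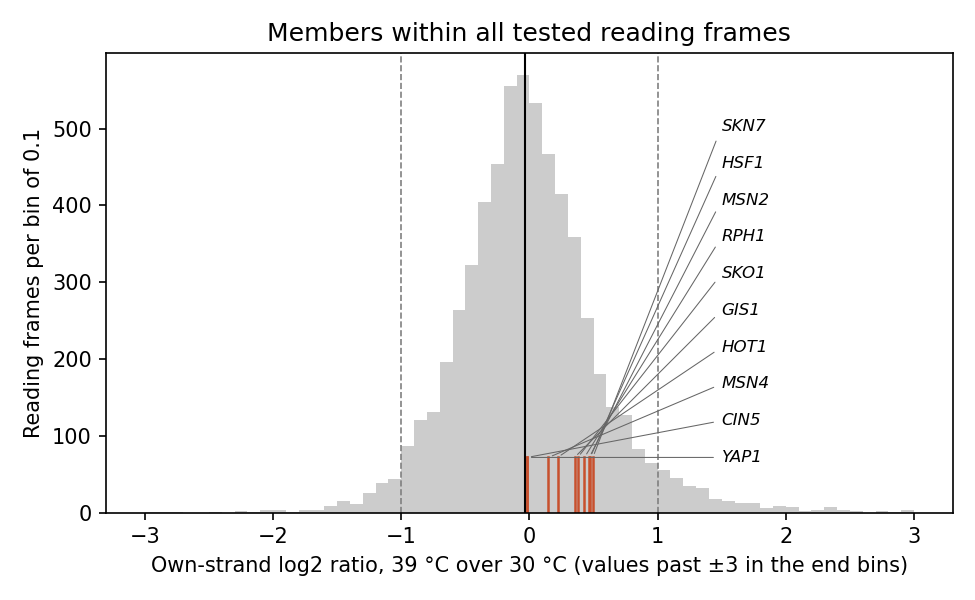
Histogram of own-strand log2 ratios of the 6162 tested reading frames in bins of 0.1, with the 10 genes as vertical ticks and names, the median of all (-0.03) as a solid line and 2-fold as dashed lines. The ticks lie between -0.02 and 0.49, to the right of the median and inside 2-fold.

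Gene length moved with the ratio over all reading frames. The median log2 ratio was -0.18 among the shortest reading frames, of up to 636 bases, and 0.09 among the longest, of at least 1854 bases, in a split into 4 length classes of like size. Of the 10 genes 9 belong to the longest class, and CIN5, with 888 bases, to the class of 639 to 1152 bases, whose median was -0.09. The upper quartile of the longest class was 0.31, and SKN7, HSF1, MSN2, RPH1, SKO1 and GIS1 lay above it. The part of length in these ratios was not tested.

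Among themselves the genes differed by more than counting error in 22 of the 45 possible pairs. YAP1 and CIN5 accounted for many of these, as each had a lower ratio than HSF1, MSN2, SKN7, GIS1, RPH1 and SKO1. MSN4 also lay below those 6 genes. No pair within the group of HSF1, MSN2, SKN7, GIS1, RPH1 and SKO1 differed beyond counting error. These pairs share the same 2 libraries, and the intervals leave out the spread between cultures. How often pairs of all tested reading frames differ in this way was not computed, so the count is not read as a trait of these genes. The log2 ratios of all tested reading frames spread more widely, with quartiles of -0.33 and 0.28 beside 0.17 and 0.46 for the 10 genes.

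Reads on the strand opposite the gene were most frequent for HSF1. At 30 °C 1229 of its reads, or 57.0% (54.8 to 59.1), lay on the minus strand, opposite the gene, and at 39 °C 1200 reads or 60.9% (58.7 to 63.1). Most reads lay on the opposite strand in 9.28% of tested reading frames at 30 °C and in 10.4% at 39 °C, and the median share was 6.01% and 8.08%. The share of the other 9 genes ran from 4.88% in GIS1 to 24.1% in RPH1 at 30 °C. In CPM, the opposite strand of HSF1 stood at 105.4 at 30 °C and 172.6 at 39 °C, above the gene's own strand at both temperatures. The counts hold reads of both strands under the name of HSF1, so the summed log2 ratio of 0.61 (0.52 to 0.70) mixes both. Whether the opposite-strand reads come from a transcript running against HSF1 was not tested.

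**Figure D4:**
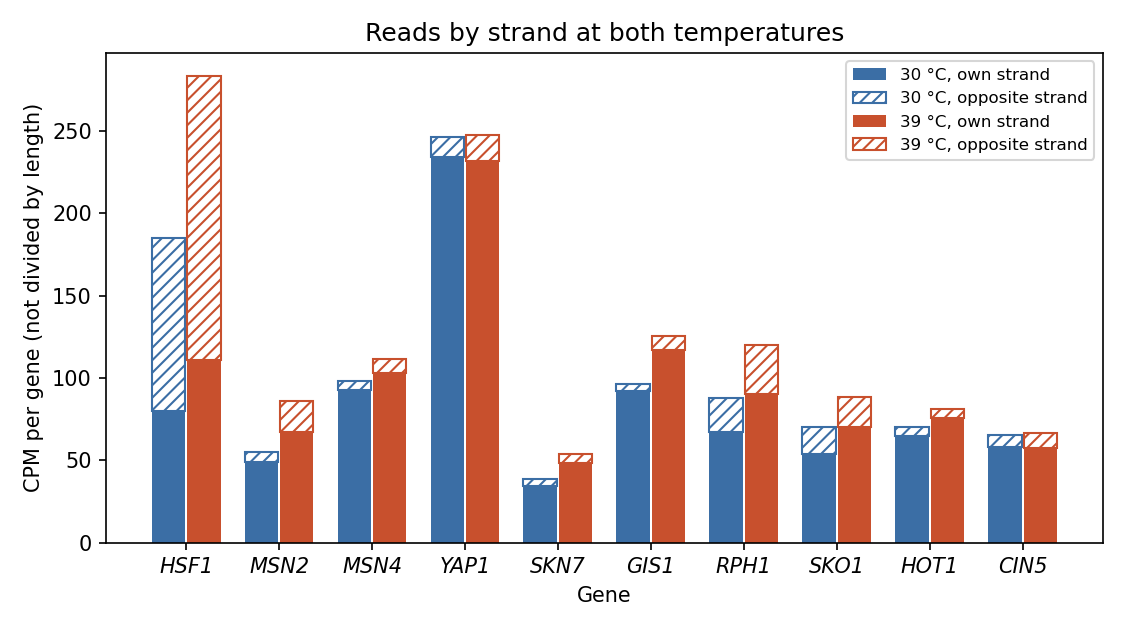
CPM of each gene, not divided by length, at 30 °C and 39 °C, split into reads of its own strand (solid) and of the opposite strand (hatched), 1 library per temperature. In HSF1 the hatched part is larger than the solid part in both libraries, while in YAP1, MSN4, GIS1 and HOT1 it is a thin cap.

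The opposite-strand ratio was largest for MSN2. Its opposite-strand reads numbered 74 or 6.35 CPM at 30 °C and 129 or 18.6 CPM at 39 °C, which is a log2 ratio of 1.54 (1.12 to 1.98). Of 6286 reading frames with at least 20 opposite-strand reads, 10.5% were at least 2-fold higher at 39 °C, 1.0% at least 2-fold lower, and the median log2 ratio was 0.38. MSN2 was at percentile 97.7 of them. Its own-strand log2 ratio lay below its opposite-strand ratio by more than counting error, at -1.08 (-1.55 to -0.62) for own minus opposite. The same difference was -0.24 (-0.42 to -0.06) for HSF1, -0.62 (-1.18 to -0.06) for MSN4 and -0.40 (-0.79 to -0.02) for YAP1. In the other 6 genes its interval included 0. A lower ratio on the own strand was general, with medians over the tested reading frames of -0.03 on the own strand and 0.38 on the opposite strand. The opposite-strand ratio of YAP1 was at percentile 50.9, that of HSF1 at 75.1 and that of MSN4 at 79.0. How many of all reading frames have such a difference beyond counting error was not computed. Opposite-strand reads took up a larger part of the 39 °C library in general, as own-strand reads made up 91.4% of the reads of all reading frames at 30 °C and 88.6% at 39 °C.

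The authors' deposited table lists all 10 genes as flat. It calls 2.96% of its 7126 features up and 4.97% down, and the highest probability it gives to any of the 10 is 0.668, for HSF1, where called features have at least 0.900. The ratio column of the authors' deposited table is negative where its state reads up, so its sign was turned here. With the sign turned, the authors' deposited table gives a log2 ratio of 0.53 for SKN7, 0.48 for MSN2 and RPH1, 0.42 for HSF1 and SKO1, 0.40 for GIS1, 0.21 for MSN4, 0.04 for CIN5 and 0.02 for YAP1. Over all tested reading frames its values exceeded the own-strand ratios by a median of 0.05, with 5th and 95th percentiles of -0.09 and 0.11. HOT1 was the member outside that range, at -0.0049 in the authors' deposited table and 0.22 from the own-strand reads, a difference of -0.22. HSF1, at -0.06, was the next lowest but inside that range, and MSN2, SKN7, YAP1 and SKO1 were also below the median difference. HOT1 and HSF1 each have a feature next to them in the systematic numbering that is named for the other strand. These features, YMR172C-A for HOT1 and YGL072C for HSF1, held reads of the gene's strand. The annotation used here gives neither feature a position, so whether they overlap the genes and so bear on the counts of HSF1 and HOT1 was not tested.

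Genes that act on these factors or with them were compared as lists. The counts past 2-fold in each list stand beside 4.4% higher and 2.69% lower over all tested reading frames. The 6 genes of chaperones that are known or proposed to bind Hsf1 were all higher at 39 °C, with a median log2 ratio of 1.08 and 4 of 6 at least 2-fold higher. HSP82 had an own-strand log2 ratio of 1.5 (1.48 to 1.52), SIS1, the J-domain partner of Hsp70 on Hsf1, 1.31 (1.26 to 1.36), YDJ1 1.15 (1.08 to 1.21) and HSC82 1.02 (1.00 to 1.05). The Hsp70 genes SSA2, with 0.76 (0.73 to 0.80), and SSA1, with 0.59 (0.56 to 0.62), were the lowest. The interval of HSF1 itself, at 0.47 (0.33 to 0.61), reached the value of SSA1, so no order was set between these.

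Regulators of Msn2 and Msn4 had a median log2 ratio of -0.03 over 14 genes, close to that of all tested reading frames, and none was past 2-fold. The kinase gene YAK1, with 0.47 (0.38 to 0.57), and the export receptor gene MSN5, with 0.30 (0.22 to 0.37), were the highest. BCY1, the inhibitory subunit of protein kinase A, was the lowest at -0.39 (-0.54 to -0.24), next to the kinase gene SNF1 at -0.32 (-0.45 to -0.19). MSN2, at 0.47, was about as high as the highest of its regulators.

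In the Hog1 and Sln1 pathway, which leads to Sko1, Hot1 and Skn7, the median was -0.01 over 18 genes, with 1 at least 2-fold higher and none 2-fold lower. That gene was PTP2, a phosphatase that acts on Hog1, at 95.2 CPM at 30 °C and 201.7 CPM at 39 °C, with a log2 ratio of 1.08 (0.97 to 1.2). HOG1 itself had -0.49 (-0.62 to -0.36) and the membrane sensor gene SHO1 -0.69 (-0.95 to -0.44), while the kinase gene SSK22 had 0.68 (0.54 to 0.82). Target genes of Hot1 and Sko1 had a median of 0.16 over 7 genes, of which GRE2, a reductase gene under Sko1, was 2-fold higher at 1.01 (0.90 to 1.12). SFA1, an alcohol dehydrogenase gene, had 0.84 (0.76 to 0.92). GPP2, a glycerol phosphatase gene, had -0.12 (-0.24 to -0.01). The rest of the list was ENA1 at 0.57, AHP1, also on the list of Yap1 targets, at 0.16, GPD1 at 0.08 and STL1. STL1 had -0.0021 (-0.54 to 0.51), from 86 and 51 own-strand reads. Its opposite strand held 88.9% of its reads at 30 °C and 90.5% at 39 °C.

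Regulators of Yap1 in redox control and transport had a median of -0.33 over 9 genes. This list shares TRR1, TRX2 and TSA1 with that of the Yap1 targets below, and its median is the value of TSA1. Of the genes not shared, TRX1 and HYR1 had negative log2 ratios, and CRM1, YBP1, YBP2 and PSE1 had positive ones. The thioredoxin gene TRX1, at -1.17 (-1.26 to -1.08), was the 1 member 2-fold lower. HYR1, whose product oxidises Yap1, had -0.78 (-0.90 to -0.67) and CRM1, the exportin of Yap1, 0.47 (0.40 to 0.54). Targets of Yap1 went both ways around a median of 0.31 over 13 genes, from TRR1 at -0.43 (-0.50 to -0.35) to OYE3, an oxidoreductase gene, at 1.82 (1.72 to 1.91), the 1 member past 2-fold. YAP1 itself stood at -0.02.

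**Figure D5:**
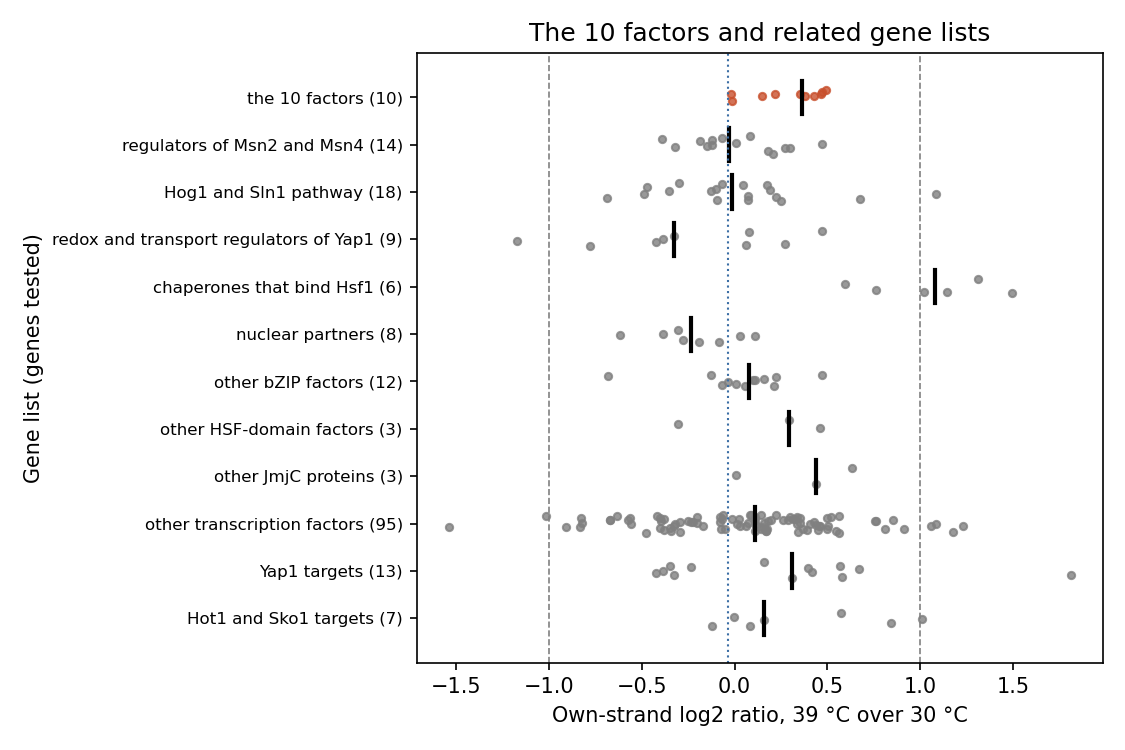
Own-strand log2 ratio of each gene (points) by list, with the list's median as a black bar, the median of all tested reading frames as a dotted line and 2-fold as dashed lines. Numbers in brackets are genes tested. The 10 factors lie between -0.02 and 0.49, and the 95 other transcription factors between -1.54 and 1.23.

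A list of 97 other transcription factor genes served for comparison, 95 of which had enough reads. Their median log2 ratio was 0.11, with quartiles of -0.29 and 0.36, and 4 were at least 2-fold higher and 2 at least 2-fold lower. These counts are near the shares over all tested reading frames, 4.4% higher and 2.69% lower. The higher ones were RPN4, the activator of proteasome genes, with 1.23 (1.17 to 1.30), SMP1, which codes for a factor under Hog1, with 1.18 (1.03 to 1.33), YRR1, a drug resistance factor gene, with 1.09 (0.95 to 1.23) and GAL4 with 1.06 (0.72 to 1.39). The cell-cycle factor gene SWI5 had -1.54 (-1.74 to -1.35), and USV1, a zinc finger gene, had -1.01 (-1.17 to -0.86). Of the 95 genes 61.1% lay above the median of all tested reading frames. The genes past 2-fold in this list were named for passing it and none of the 10 did. That they differed by more than any of the 10 follows from this choice.

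Relatives of the members were taken by protein family. Among 12 other bZIP genes, with a median of 0.08, none was past 2-fold, and they ran from GCN4 at -0.68 (-0.75 to -0.61) to ACA1 at 0.47 (0.14 to 0.79). The 3 other JmjC genes had 0.63 (0.52 to 0.74) for ECM5, 0.44 (0.35 to 0.53) for JHD1 and 0.01 (-0.13 to 0.14) for JHD2. Of the 3 other genes with an HSF-like domain, SFL1 had 0.29 (0.00 to 0.58), MGA1 0.46 (-0.22 to 1.13) and HMS2 -0.30 (-0.65 to 0.03). Like HSF1, HMS2 and MGA1 had most of their reads on the opposite strand. The share was 69.3% at 30 °C and 83.9% at 39 °C for HMS2, and 57.3% and 65.4% for MGA1. In SFL1 it was 30.9% and 35.9%. The ratio of MGA1 rests on 44 and 36 own-strand reads. Among 8 genes of nuclear partners, such as corepressors and remodelers, the median was -0.23, and TUP1, which acts with Sko1, was the lowest at -0.62 (-0.74 to -0.49). CYC8, which codes for the other part of the Tup1 and Cyc8 corepressor, had -0.08.

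The genes nearest to the 2 extremes of the group were found by distance in log2 CPM over both libraries. MET13, at 33.9 and 48.6 CPM, and FUS2, at 34.7 and 46.9 CPM, were the nearest to SKN7. SYF1, at 237.3 and 232.4 CPM, and RPT3, at 237.4 and 232.2 CPM, were the nearest to YAP1. With 2 libraries such likeness is common, as 9 genes lay within a distance of 0.1 of SKN7 and 40 of YAP1.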

How the data were processed

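The members and gene lists were chosen with earlier results of these data known. The deposited count files hold raw read counts per feature, made by the authors with Bowtie 1.1.1 and HTSeq on the builds sacCer3 and R64, per the submitters' processing notes. The sources used here do not give how the counting treated strand, whether PCR copies were removed or which annotation was used. HTSeq's 5 summary rows were left out of totals. Between 22.3% and 24.7% of counted reads lay in no feature, and between 3.92% and 13.3% were ambiguous between features.

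The authors' deposited table gives a log2 ratio, a probability score between 0 and 1, which is no p-value, a ranking score that was not used, a call and the feature length. Its 2 columns per library match no label and were not used.

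A gene's strand was read from its systematic name. Log2 ratios were taken after adding 0.5 to each count, over reading frames with at least 20 own-strand reads. Ratio intervals are exact conditional binomial, share intervals Clopper-Pearson and differences of ratios conditional odds ratios (scipy 1.17.1). CPM are reads scaled by the library total in features. The floor for a count of 0 is 3 reads. Names and coordinates come from RefSeq R64, in which no other listed gene overlaps a member. YGL072C and YMR172C-A, numbered next to HSF1 and HOT1, have no position in it, so their overlap was not checked. The calculation was tested on simulated counts. Named genes are the members, the 2 genes nearest to each extreme member and, of each list, the 2 highest, 2 lowest, 2 most read and those past 2-fold. Of these list genes the text prints all past 2-fold and a part of the rest, picked after their values were seen. Alternatives used edgeR 4.0.16, DESeq2 1.42.0, summed strands, other pseudocounts, filters and folds, and a thinned library. Sequences were not used here.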

Additional observations from a re-analysis of the deposited data

Results flagged for a closer look

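A pair of features next to HSF1 and HOT1 in the systematic numbering held reads of the strand of these genes, above the 3 reads that a count of 0 allows. The feature YGL072C, named for the minus strand, had 176 reads on the plus strand, that of HSF1, at 30 °C and 67 at 39 °C, against 12 and 6 on its own. These were 93.6% of its reads at 30 °C, with a Clopper-Pearson interval from 89.1 to 96.7%, and 91.8% at 39 °C, with one from 83.0 to 96.9%, and their log2 ratio was -0.64 (-1.08 to -0.23). The feature YMR172C-A, also named for the minus strand, had 164 reads on the plus strand, that of HOT1, at 30 °C and 57 at 39 °C, against 2 and 4 on its own. The shares were 98.8% (95.7 to 99.9) and 93.4% (84.1 to 98.2), and the log2 ratio was -0.77 (-1.24 to -0.34). The annotation used here gives neither feature a position. Whether they overlap HSF1 and HOT1, whether these reads come from those transcripts and whether the counts of HSF1 and HOT1 lack such reads was not tested.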

How the results depend on the processing

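The count of members past 2-fold stayed at 0 in both directions under every alternative run, 1.5-fold included. Their median log2 ratio ran from 0.33 with the 30 °C library thinned to 0.39 with DESeq2 size factors, and was 0.36 without HSF1 and HOT1, an alternative chosen after seeing the data. With both strands summed the log2 ratio of HSF1 was 0.61, the median of the other HSF-domain genes 0.62 and that of the nuclear partners -0.13, and 3 of 10 members kept their place in the order of levels at each temperature. The other transcription factors at least 2-fold lower numbered 1 with summed strands, TMM factors, DESeq2 size factors or the total of the own-strand file, and at 1.5-fold 9 were higher and 9 lower. Over all reading frames 179 were 2-fold higher with at least 100 reads, and 711 were higher and 732 lower at 1.5-fold, beside 271 and 166. Another 74 values of group counts and medians and 151 values of single genes, pairs and lists kept within their counting interval or within 1.5 times the count. No paired analysis was possible because there was 1 library per temperature, which also leaves no replicate to drop. Depth limits SKN7 most, whose interval spans 0.28 to 0.71.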

Other observations

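Some of the list genes with many opposite-strand reads are pointed out here after their values were seen. HMS2, MGA1 and STL1, given above, are others. YAP6, a bZIP gene related to CIN5, had 403 own-strand reads at 30 °C and 220 at 39 °C, a log2 ratio of -0.13 (-0.37 to 0.11), while its opposite-strand reads went from 178 to 841, a log2 ratio of 2.98 (2.75 to 3.23). Opposite-strand reads of YAP6 made up 30.6% (26.9 to 34.6) of its reads at 30 °C, and at 39 °C they made up 79.3% (76.7 to 81.7). In GAL11, a Mediator subunit gene, the opposite strand held 23.2% of reads (20.2 to 26.4) at 30 °C and 48.5% (44.1 to 53.0) at 39 °C. GAL4 had 93.5% (92.3 to 94.5) of its reads on the opposite strand at 30 °C and 89.3% (87.6 to 90.7) at 39 °C, so its own-strand log2 ratio rests on 137 and 170 reads.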
